A study of Mus musculus with 12 samples.

Results

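The 10 genes described here encode parts of the mammalian circadian clock and were chosen by name: *Per1*, *Per2*, *Per3*, *Dbp*, *Nr1d1*, *Nr1d2*, *Arntl*, *Clock*, *Ciart* and *Bhlhe41*. All 10 were found by Ensembl identifier among the 26409 genes listed in the deposited table and all 10 were among the 18197 genes tested, whose average over the 12 libraries reached 0.1 TPM. TPM is a relative transcript abundance that takes the length of each transcript into account and is scaled alike in every library, so levels of different genes can be set side by side. The study asked how loss of *Dek*, which encodes a chromatin protein, alters the hippocampal transcriptome of male and female mice. Bulk poly-A RNA sequencing was done on dissected hippocampus from WT females, *Dek* cKO females, WT males and *Dek* cKO males, with 3 libraries in each group. The *Dek* cKO is a constitutive knockout. Mice whose *Dek* exons 3 and 4 lie between loxP sites were crossed to CMV-Cre mice on a C57Bl/6 background, the deletion passed through the germline, and the transgene was then bred out, so every cell type of the *Dek* cKO mice carries the deletion. All animals were 6 to 12 months old, were kept in 12 h of light and 12 h of dark, and had been through behavioral testing. The time of day at which tissue was taken is not given in the sources used here, and neither is its distribution over the groups.

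In the core of the clock, the proteins ARNTL (also called BMAL1) and CLOCK pair up and activate genes through E-box motifs. PER proteins act with cryptochromes to repress that pair, and the nuclear receptors NR1D1 and NR1D2 (REV-ERB alpha and beta) repress *Arntl* through ROR elements. This places *Arntl* on one side of the daily cycle and *Per*, *Dbp*, *Nr1d1*, *Nr1d2* and *Ciart* on the other in most mouse tissues, the hippocampus among them. *Per1* and *Per2* also respond acutely to neuronal activity, glucocorticoids and temperature.

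Some facts of the libraries bear on what follows. *Dek* was listed at 44.2 to 51.9 TPM in the WT libraries and at 5.55 to 9.25 TPM in the *Dek* cKO libraries. 4 genes of the Y chromosome went against the sex label in 2 libraries. They were high in female cKO replicate 3 and low in male cKO replicate 1, which were kept in their labelled groups. The 3 female WT libraries have names with the prefix C57 and the other 9 have the prefix CMV, a difference that cannot be told apart from female WT status. The 7 hippocampal neuron markers examined summed to 687.5 to 891.0 TPM in a library. Of 7 genes that mark the suprachiasmatic nucleus, the central pacemaker of the brain, *Six6* stayed between 0.453 and 0.854 TPM and *Nms* was listed at 0 in 9 libraries. *Vip*, which hippocampal interneurons also express, had 19.1 to 35.4 TPM, *Rgs16* had 5.06 to 11.7 TPM, *Avp* 0.665 to 3.97 TPM, *Lhx1* 0.0536 to 1.12 TPM and *Prok2* 0.206 to 0.666 TPM. Male cKO replicate 3 stood apart from the rest. Of all tested genes, 34.9% had a value in it outside the range of the other 11 libraries (the next highest share in a library was 20.7%), and 12.4% lay over 3 SD from the mean of the other 11. Its 5 astrocyte markers summed to 1700 TPM against 652.5 to 960.0 TPM elsewhere, of which *Gfap*, an intermediate filament of astrocytes, made up 1267 TPM in it against 208 to 437 TPM. The other 4 summed to 433 TPM in it, within the 424 to 523 TPM of the rest. *Aqp4*, a water channel, was higher in it (99.4 TPM against 43.3 to 57.3 TPM), *Gja1*, a gap junction gene, was lower (68.6 TPM against 116 to 151 TPM), and *Slc1a3* and *Aldh1l1* lay within the range of the other libraries. Of the mitochondrial transcripts, *mt-Atp8* had 22730 TPM in it against 41999 to 47104 TPM, while *mt-Co1* had 26514 TPM, within the 22674 to 26990 TPM of the rest. Whether these features have a part in its clock gene values was not tested. Results are therefore given with and without this library.

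The abundance of the 10 genes differed widely. Over the 11 libraries other than male cKO replicate 3, *Nr1d1* had the highest mean level, 65.2 ± 9.44 TPM (SD, n = 11), followed by *Dbp* (47.1 ± 8.67 TPM), *Nr1d2* (47.0 ± 5.19 TPM) and *Per1* (35.5 ± 6.68 TPM). *Per3* (24.5 ± 2.32 TPM), *Bhlhe41* (22.7 ± 2.52 TPM), *Arntl* (16.8 ± 1.69 TPM) and *Ciart* (16.3 ± 3.05 TPM) were intermediate. *Per2* had 12.8 ± 1.80 TPM and *Clock* was the least abundant with 4.35 ± 0.975 TPM. The ranges of each pair of neighbours in this order overlapped, apart from *Per2* and *Clock*. *Nr1d1* (chromosome 11, 98767932 to 98775333, minus strand, GRCm38) overlaps the 3′ end of *Thra* on the opposite strand. The libraries were stranded, but whether strand was used in quantification is not given in the sources used here, so the *Nr1d1* level may hold reads of *Thra*, which had 641 TPM in male cKO replicate 3 and 681 to 868 TPM in the others.

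Among the PER repressors, *Per1* (chromosome 11, 69095217 to 69109960, plus strand, GRCm38) was listed at 37.9, 50.6 and 34.2 TPM in WT females, 38.1, 39.1 and 29.2 TPM in *Dek* cKO females, 29.7, 36.5 and 28.4 TPM in WT males and 38.4, 27.8 and 23.2 TPM in *Dek* cKO males. WT female replicate 2 was the highest library and male cKO replicate 3 the lowest, and all 4 groups overlapped. The level of *Per2* (chromosome 1, 91415982 to 91459324, minus strand) was 13.9, 14.5 and 14.3 TPM in WT females, 14.7, 14.2 and 10.5 TPM in *Dek* cKO females, 11.5, 12 and 10.8 TPM in WT males and 13.9, 10.2 and 8.90 TPM in *Dek* cKO males. The 3 WT males lay below the 3 WT females, and the *Dek* cKO libraries of each labelled sex spread on both sides of their WT libraries. Sorted by the Y chromosome genes instead of the label, all libraries with low levels of them had 13.9 to 14.7 TPM of *Per2*. All those with high levels had 8.90 to 12 TPM, a split that was not tested. *Per3* (chromosome 4, 151003652 to 151044665, minus strand) was the steadiest of the 3 in WT mice, with 22.1, 23.3 and 24.3 TPM in females and 23.9, 24.0 and 23.4 TPM in males. *Dek* cKO females had 30.6, 24.6 and 24.3 TPM of *Per3* and *Dek* cKO males had 26.3, 22.3 and 8.07 TPM. The last value, of male cKO replicate 3, was 2.98-fold below the median of the other 11 libraries, all of which held between 22.1 and 30.6 TPM.

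*Dbp*, which encodes a PAR bZIP transcription factor that acts on D-box motifs and is a direct output of the clock, had the widest range of the 10 genes over the 12 libraries, as the ratio of the highest value to the lowest (7.45). That ratio was 1.73 without male cKO replicate 3, below those of *Clock* (1.96), *Ciart* (1.85) and *Per1* (1.82). In WT females it was listed at 41.9, 46.6 and 51.8 TPM and in WT males at 47.2, 41.2 and 40.4 TPM. *Dek* cKO females had 64.9, 58.1 and 37.4 TPM of *Dbp*, and *Dek* cKO males had 50.7, 38.3 and 8.71 TPM. The 2 highest libraries and the 2 lowest were thus all *Dek* cKO. The 2 highest had low levels of the Y chromosome genes. The 2 lowest had high levels, female cKO replicate 3 among them against its label. The SD of *Dbp* was 4.45 TPM over the 6 WT libraries and 20 TPM over the 6 *Dek* cKO libraries, which became 12.1 TPM without male cKO replicate 3. *Dbp* (chromosome 7, 45705088 to 45710203, plus strand) in male cKO replicate 3 was 5.35-fold below the median of the other 11 libraries.

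The REV-ERB repressors followed the same order of libraries at the extremes. *Nr1d1* measured 61.7, 72.4 and 70.5 TPM in WT females, 85.0, 76.3 and 55.2 TPM in *Dek* cKO females, 58.3, 58.6 and 58.0 TPM in WT males and 61.4, 59.9 and 35.1 TPM in *Dek* cKO males. For *Nr1d2* (chromosome 14, 18204054 to 18239127, minus strand) the values were 46.5, 47.6 and 46.0 TPM, 57.2, 51.6 and 38.1 TPM, 49.8, 44.9 and 41.9 TPM, and 49.9, 42.9 and 22.4 TPM in the same order. Female cKO replicate 1 was highest and male cKO replicate 3 lowest for both genes, and female cKO replicate 3 was the second lowest. *Ciart* (chromosome 3, 95878503 to 95882251, minus strand), which encodes a repressor of CLOCK and ARNTL also known as CHRONO, had 14.1, 20.4 and 17.1 TPM in WT females, 20.9, 16.2 and 11.3 TPM in *Dek* cKO females, 19.0, 16.7 and 12.4 TPM in WT males and 15.9, 15.2 and 6.92 TPM in *Dek* cKO males. Its highest, lowest and second lowest libraries were the same 3 as those of the REV-ERB genes.

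*Bhlhe41* (chromosome 6, 145858243 to 145865558, minus strand), which encodes the E-box repressor DEC2, behaved differently. Its level was 21, 24.2 and 20.4 TPM in WT females, 26.0, 24.6 and 25.8 TPM in *Dek* cKO females, 21.5, 20.9 and 18.8 TPM in WT males and 25.4, 21.2 and 44.6 TPM in *Dek* cKO males. All 3 *Dek* cKO females lay above the 3 WT females, and male cKO replicate 3 had 2.07-fold the median of the other 11 libraries. Of the bHLH-PAS activators, *Arntl* (chromosome 7, 113207465 to 113314126, plus strand) was listed at 18.2, 17.8 and 13.4 TPM in WT females, 16.9, 15.2 and 19.4 TPM in *Dek* cKO females, 15.7, 17.6 and 18.2 TPM in WT males and 16.2, 16.1 and 25.4 TPM in *Dek* cKO males. Male cKO replicate 3 was the highest library and female cKO replicate 3 came next, the reverse of their places for *Dbp* and *Nr1d2*. *Clock* (chromosome 5, 76209868 to 76304792, minus strand) had 4.26, 4.41 and 4.40 TPM in WT females, 3.36, 4.11 and 3.41 TPM in *Dek* cKO females, 3.86, 4.80 and 6.19 TPM in WT males and 5.87, 3.15 and 7.38 TPM in *Dek* cKO males. The 3 *Dek* cKO females lay below the 3 WT females, while *Dek* cKO males held both the lowest and the highest value.

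**Figure D1:**
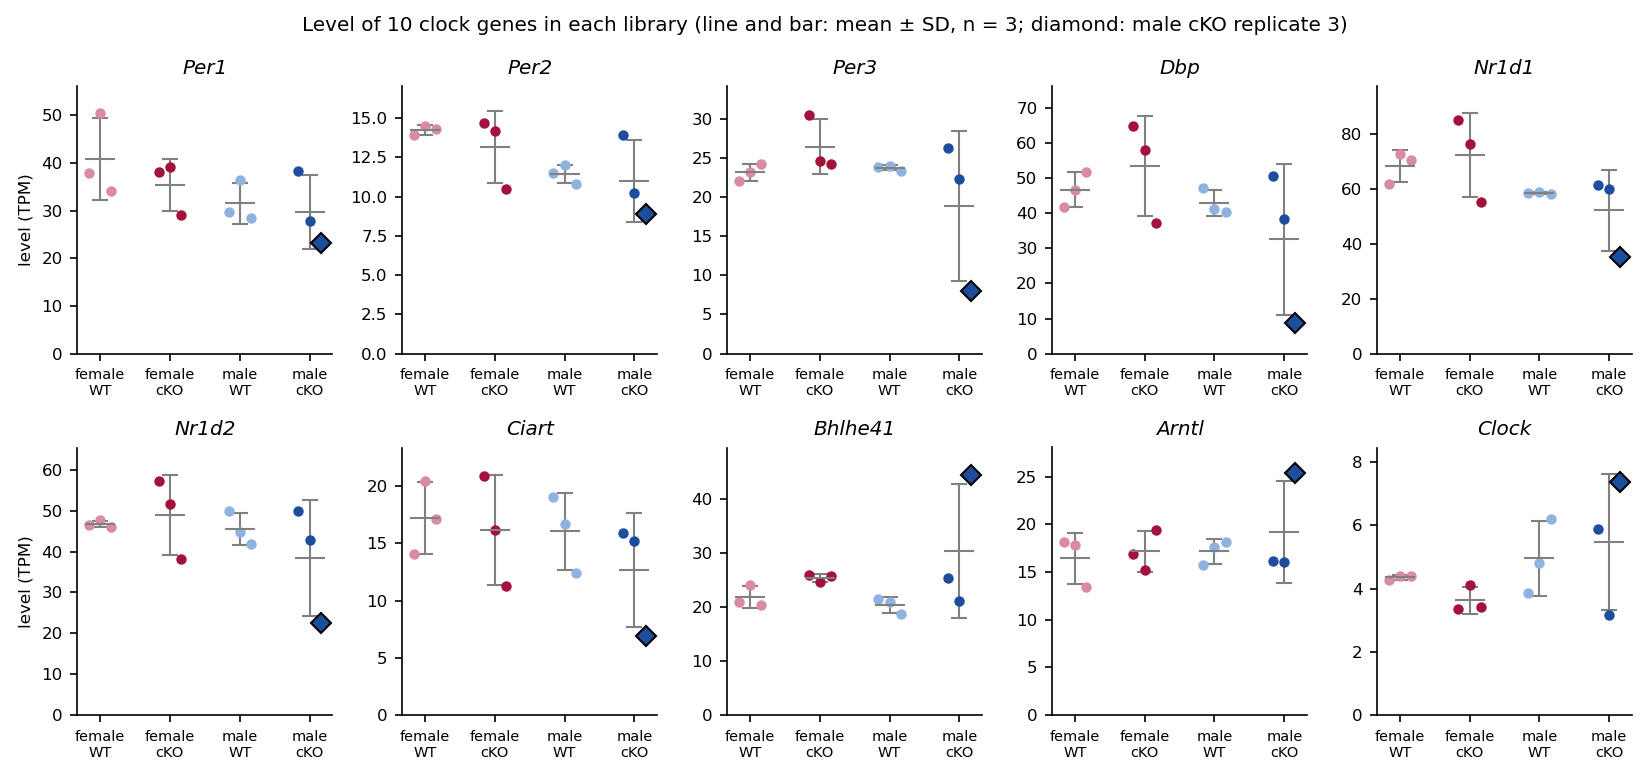
Level of each of the 10 clock genes in TPM (vertical axis, from 0) in every library of the 4 groups (horizontal axis), with 1 point per library and the mean ± SD of 3 libraries as lines and bars. The diamond, male cKO replicate 3, is the lowest point for *Per1*, *Per2*, *Per3*, *Dbp*, *Nr1d1*, *Nr1d2* and *Ciart* and the highest for *Bhlhe41*, *Arntl* and *Clock*.

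Male cKO replicate 3 lay outside the range of the other 11 libraries for 10 of the 10 clock genes, against the 34.9% of all tested genes. Within the *Dek* cKO group of 6, it was set apart by a wide gap to its nearest neighbour (Dixon's ratio) for 2 of the 10, *Per3* and *Bhlhe41*, against 5.38% of all tested genes. It was over 3 SD from the mean of the other 11 for 7 of the 10, against 12.4% of all tested genes. The genes below were the repressors and outputs *Per1*, *Per2*, *Per3*, *Dbp*, *Nr1d1*, *Nr1d2* and *Ciart*, and those above were the activators *Arntl* and *Clock* and the repressor *Bhlhe41*. On the log2(TPM + 0.1) scale the difference from the mean of the other 11 was -2.40 for *Dbp*, -1.58 for *Per3*, -1.20 for *Ciart*, -1.05 for *Nr1d2*, -0.88 for *Nr1d1*, -0.59 for *Per1* and -0.50 for *Per2*. It was 0.60 for *Arntl*, 0.78 for *Clock* and 0.98 for *Bhlhe41*. The differences of *Per1*, *Per2* and *Clock* were 2.3, 2.4 and 2.6 SD of the other 11 libraries, and the largest in these terms was that of *Per3*, at 12.4 SD. Female cKO replicate 1 lay above all other libraries for 6 of the 10, *Per2*, *Per3*, *Dbp*, *Nr1d1*, *Nr1d2* and *Ciart*. In that library 20.7% of all tested genes lay outside the range of the rest, in either direction. There, 0 of the 10 were over 3 SD from the mean of the rest, against 2.56% of all tested genes.

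Of 25 other clock genes, male cKO replicate 3 lay below the range of the other 11 libraries for 9, above it for 6 and within it for 10. *Tef* and *Hlf*, which encode the other PAR bZIP factors, had 166 and 21.3 TPM in male cKO replicate 3 against 274 to 322 TPM and 32.3 to 80.6 TPM elsewhere. *Usp2*, a rhythmic ubiquitin protease, had 19.3 TPM against 34.0 to 43.7 TPM, and *Cry2*, a cryptochrome, had 44.2 TPM against 56.3 to 74.9 TPM. *Nfil3*, a repressor that competes with DBP for D-boxes, had 11.5 TPM against 4.61 to 7.98 TPM, and *Arntl2*, a paralog of *Arntl*, had 25 TPM against 10.7 to 16.6 TPM. *Npas2*, a paralog of *Clock*, went the other way from *Clock*, with 10.7 TPM against 13.5 to 22.3 TPM. *Cry1* and *Bhlhe40* lay within the range of the other libraries, as did the kinase genes *Csnk1d*, *Csnk1e* and *Gsk3b*. These genes were named after their values were seen.

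**Figure D2:**
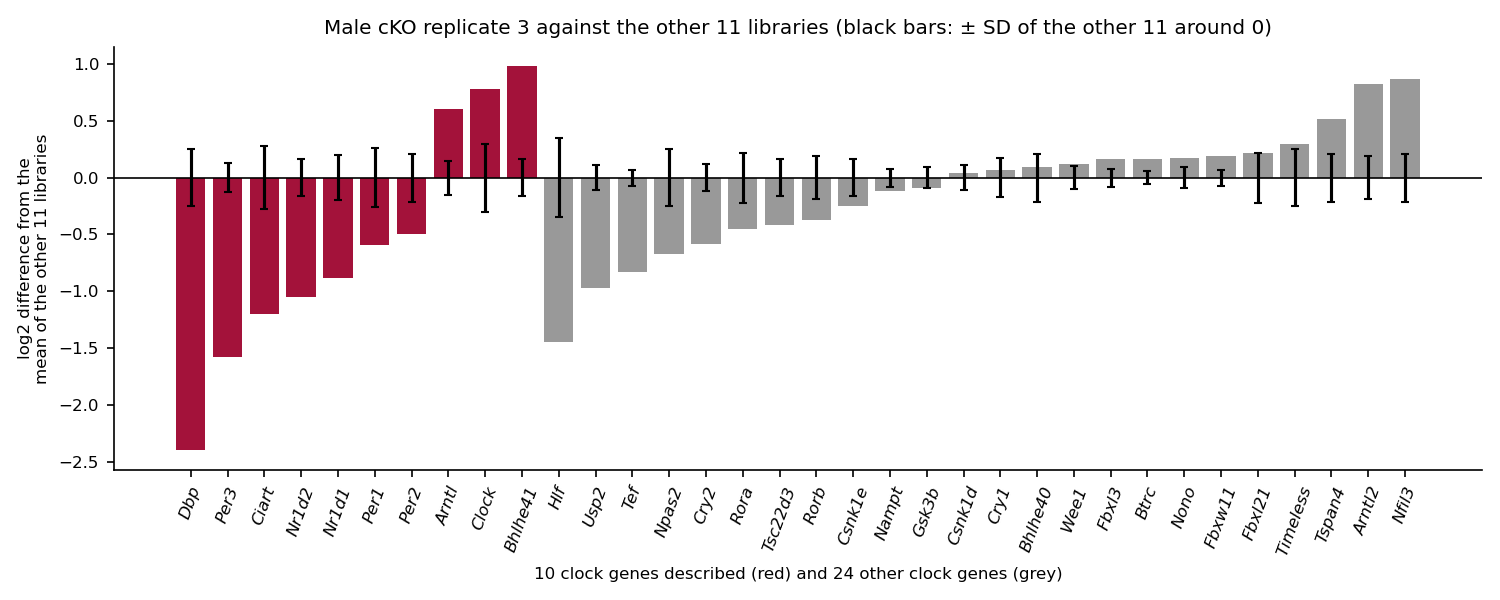
Difference of male cKO replicate 3 from the mean of the other 11 libraries in log2(TPM + 0.1) (vertical axis) for the 10 clock genes described (red) and 24 other clock genes (grey), with black bars for ± 1 SD of the other 11 libraries around 0. *Dbp* has the lowest bar at -2.40 and *Bhlhe41* the highest at 0.98.

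The genotypes were compared with limma on log2(TPM + 0.1), with *p* adjusted by the Benjamini-Hochberg method over the 18197 genes, and the threshold was an adjusted *p* under 0.05 together with a fold change over 1.2. In the bulk tissue, a change in the number of cells that express a gene and a change in its level per cell cannot be told apart. The labels do not say whether the libraries of a group come from separate litters or collection days, and *p* measures the spread between these libraries only. Of the 10 clock genes, 0 passed when all *Dek* cKO were compared with all WT libraries, where 0.148% of all tested genes passed. At an unadjusted *p* under 0.05 there was 1 of the 10, *Bhlhe41*, where 6.64% of all tested genes reached it. *Bhlhe41* had a log2 fold change of 0.36 ± 0.14 (SE) and an adjusted *p* of 0.664 (limma), with means of 27.9 ± 8.35 TPM in *Dek* cKO and 21.1 ± 1.78 TPM in WT mice (SD, n = 6 each). Without male cKO replicate 3 its log2 fold change was 0.22 ± 0.07 (SE) and its adjusted *p* was 0.501 (limma).

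The other 9 genes had log2 fold changes between -0.29 and 0.10. *Dbp* had -0.29 ± 0.38 (SE), *Ciart* -0.27 ± 0.22, *Per3* -0.16 ± 0.25, *Per1* -0.15 ± 0.16, *Nr1d2* -0.14 ± 0.18, *Per2* -0.10 ± 0.13, *Clock* -0.09 ± 0.20, *Nr1d1* -0.07 ± 0.17 and *Arntl* 0.10 ± 0.12. Of the 10, 8 were below 0, with a median of -0.12, beside a median of 0.016 over all tested genes, of which 55.8% were above 0. Leaving out male cKO replicate 3 turned *Dbp* to 0.12 ± 0.14, *Per3* to 0.12 ± 0.07, *Nr1d1* to 0.08 ± 0.11 and *Nr1d2* to 0.04 ± 0.09, and the median of the 10 became 0.021. The direction of these 4 differences thus rested on 1 library. For 0 of the 10 genes did the 6 *Dek* cKO values lie apart from the 6 WT values, against 0.676% of all tested genes.

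In females, 0 of the 10 passed (0.0165% of all tested genes passed), and 0 had an unadjusted *p* under 0.05 in limma, against 5.79% of all tested genes. The female groups did not overlap for 3 of the 10, where 12% of all tested genes were without overlap in either direction. These were *Bhlhe41* and *Per3*, higher in *Dek* cKO, and *Clock*, lower in *Dek* cKO. *Bhlhe41* had a log2 fold change of 0.22 ± 0.21 (SE), *Per3* of 0.18 ± 0.33 and *Clock* of -0.26 ± 0.27, with adjusted *p* of 0.95, 0.979 and 0.954 (limma). The gap in *Per3* was below 0.1 TPM between WT replicate 3 and *Dek* cKO replicate 3, which both round to 24.3 TPM. In males, 0 of the 10 passed (0.0165% of all tested genes), and 1 had an unadjusted *p* under 0.05, *Bhlhe41*, against 5.45% of all tested genes. Its log2 fold change in males was 0.50 ± 0.21 (SE, adjusted *p* = 0.88, limma) and 0.19 ± 0.10 without male cKO replicate 3 (adjusted *p* = 1.0). The male groups overlapped for all 10 genes, where 9.75% of all tested genes had no overlap. *Dbp* fell furthest in value in males, with a log2 fold change of -0.73 ± 0.50 (SE), *Per3* had -0.50 ± 0.33, *Ciart* -0.41 ± 0.32 and *Nr1d2* -0.32 ± 0.24, and none of the 4 passed. Without male cKO replicate 3 these were 0.04 ± 0.21, 0.03 ± 0.11, -0.03 ± 0.25 and 0.03 ± 0.15, and 0 of the 10 had an unadjusted *p* under 0.05 in males (limma, 4.13% of all tested genes). With both libraries of conflicting sex left out, which leaves 2 *Dek* cKO males with male cKO replicate 3 among them, 5 of the 10 had an unadjusted *p* under 0.05 and 0 passed, against 8.86% of all tested genes at that unadjusted *p* (limma). These were *Dbp* (-1.22 ± 0.46, SE), *Per3* (-0.82 ± 0.33), *Nr1d2* (-0.55 ± 0.21), *Per2* (-0.26 ± 0.09) and *Bhlhe41* (0.59 ± 0.25), with adjusted *p* from 0.551 to 0.556 (limma). Leaving out male cKO replicate 1 alone gave 4 of the 10, the same genes without *Per2* (7.69% of all tested genes).

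For the interaction of genotype with sex, 0 of the 10 passed (0.0% of all tested genes), with 0 of the 10 at an unadjusted *p* under 0.05 against 4.23% of all tested genes (limma). *Dbp* had an interaction of -0.89 ± 0.70 (SE, log2 scale), which was -0.12 ± 0.28 without male cKO replicate 3 and -1.62 ± 0.66 without both libraries of conflicting sex. In the latter fit 4 of the 10 had an interaction at an unadjusted *p* under 0.05, *Dbp*, *Per3*, *Nr1d2* and *Nr1d1*, with adjusted *p* from 0.532 to 0.562, against 8.8% of all tested genes (limma). Between WT males and WT females, 0 of the 10 passed (0.0% of all tested genes) and 0 had an unadjusted *p* under 0.05, against 3.63% of all tested genes (limma). *Per1* and *Per2* had the largest differences, -0.36 ± 0.20 and -0.32 ± 0.16 (SE, log2 fold change of males over females, adjusted *p* = 1.0 for both). In WT libraries the sex also coincides with the name prefix. The *Dek* cKO libraries all have the CMV prefix. Those with low Y chromosome genes had 38.1 to 39.1 TPM of *Per1* and 13.9 to 14.7 TPM of *Per2*. Those with high Y chromosome genes had 23.2 to 29.2 TPM of *Per1* and 8.9 to 10.5 TPM of *Per2*. This split within 1 prefix was not tested.

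**Figure D3:**
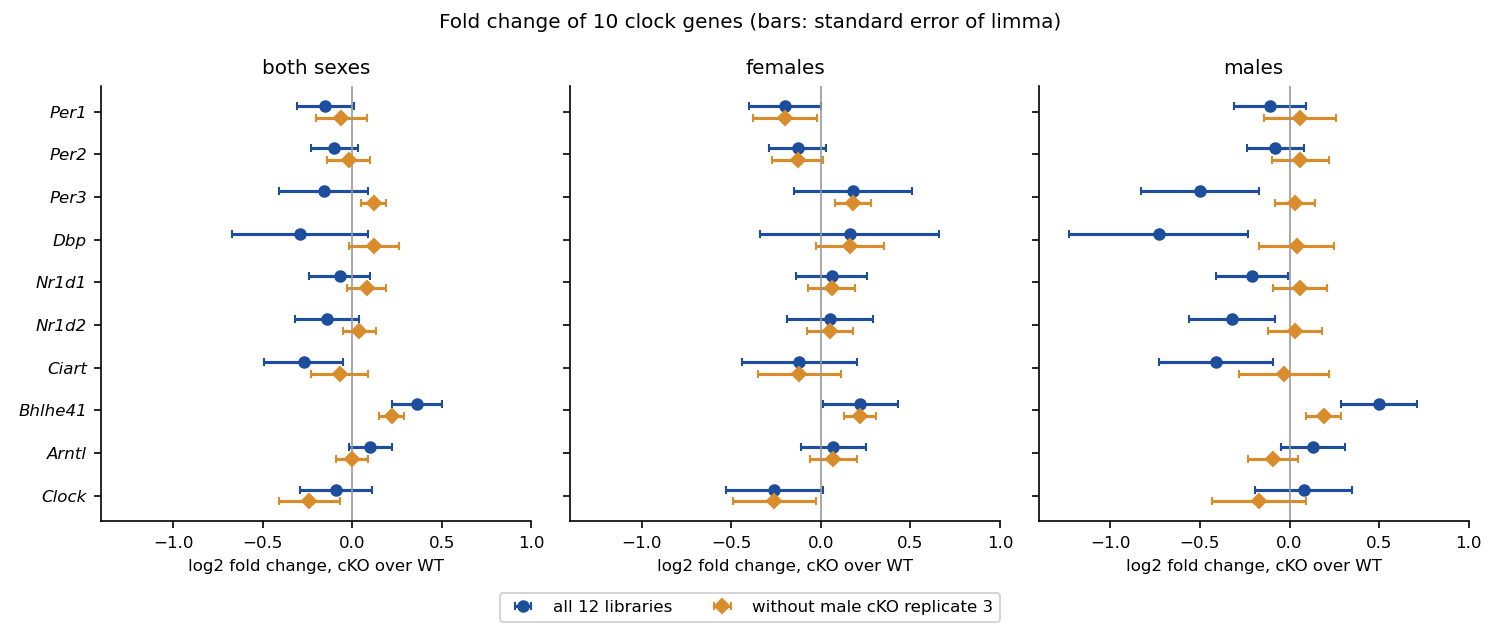
Log2 fold change of *Dek* cKO over WT (horizontal axis, points, with bars for the standard error from limma) of the 10 clock genes in both sexes, females and males, with all 12 libraries (circles) and without male cKO replicate 3 (diamonds). *Dbp* in males moves from -0.73 to 0.04, while the female values keep their place because that library is not in the female groups.

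Of the 25 other clock genes, 0 passed in any of the 5 comparisons, and at most 4 in a comparison, the male one, had an unadjusted *p* under 0.05 (limma, 5.45% of all tested genes). Leaving out male cKO replicate 3 took the male count from 4 to 0 (4.13% of all tested genes) and, through the estimate of spread that the 4 groups share, the female count from 2 to 4 (from 5.79% to 7.24%). In both sexes together 14 had a log2 fold change above 0 and 11 below, with a median of 0.007, and 1 had an unadjusted *p* under 0.05 in limma. That gene was *Tspan4*, which encodes a tetraspanin, at 0.34 ± 0.10 (SE, adjusted *p* = 0.447). In females the median was 0.071 and the highest value was that of *Npas2*, 0.47 ± 0.17. In males the median was -0.027, and *Tspan4* was highest at 0.40 ± 0.15.

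Although the genotypes did not separate, the clock genes covaried from library to library. Part of this variation ran along the Y chromosome genes. *Nr1d1* had 61.4 to 85.0 TPM in libraries with low levels of them and 35.1 to 59.9 TPM in those with high levels. *Per2* was split in the same way, while the ranges of the other clock genes described overlapped. Whether sex has a part in the correlations was not tested. Of the 45 pairs of the 10 genes, 27 had a correlated level over the 12 libraries (Pearson's r of log2(TPM + 0.1), two-sided permutation test with 100000 resamples, adjusted over the 45 pairs), 21 with positive and 6 with negative r. Points of such a correlation share a library and its scaling to a common total. Male cKO replicate 3 lay outside the range of the other 11 libraries for 34.9% of all tested genes. The share of pairs among all tested genes that would pass was not worked out. How far the pair counts given here differ from those of other genes is therefore not known. The genes *Per1*, *Per2*, *Per3*, *Dbp*, *Nr1d1*, *Nr1d2* and *Ciart* formed 1 group, in which r ran from 0.59 to 0.98 and 20 of 21 pairs passed. *Arntl* ran against it in 6 pairs past the test, with r from -0.84 (*Dbp*) to -0.64 (*Per2*). *Arntl* and *Bhlhe41* had r of 0.72 (adjusted permutation *p* = 0.0495). *Clock* was in 0 pairs past the test, with 3 of its pairs, those with *Per3*, *Dbp* and *Nr1d1*, at an unadjusted permutation *p* under 0.05.

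Leaving out male cKO replicate 3 reduced the 27 pairs to 9, all with positive r. The negative pairs of *Arntl* were among those lost, and *Arntl* and *Dbp* had r of -0.53 without that library (adjusted permutation *p* = 0.228). Pairs that passed without it were *Per1* with *Per2*, *Per2* with *Dbp*, *Nr1d1* and *Nr1d2*, *Per3* with *Dbp*, *Dbp* with *Nr1d1* and *Nr1d2*, *Nr1d1* with *Nr1d2*, and *Nr1d2* with *Ciart*. The closest was *Dbp* with *Nr1d2*. Over 12 libraries this pair had r of 0.98 and rho of 0.92 (permutation *p* of 1e-05, the smallest that 100000 resamples give, adjusted 0.000225, and 6e-05 for rho, adjusted 0.0027). It had r of 0.91 without male cKO replicate 3 (adjusted permutation *p* = 0.00315), 0.85 without the 2 libraries farthest from the median of *Dbp*, which were female cKO replicate 1 and male cKO replicate 3, and 0.98 over the 9 libraries with the CMV prefix. *Per1* and *Per2* had r of 0.90 and rho of 0.85 (adjusted permutation *p* of 0.000675 and 0.0081), 0.84 without male cKO replicate 3 and 0.96 in the CMV libraries. By contrast *Dbp* and *Bhlhe41* had r of -0.76 over 12 libraries and 0.47 without male cKO replicate 3, and neither passed the test (adjusted permutation *p* of 0.0961 and 0.324).

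**Figure D4:**
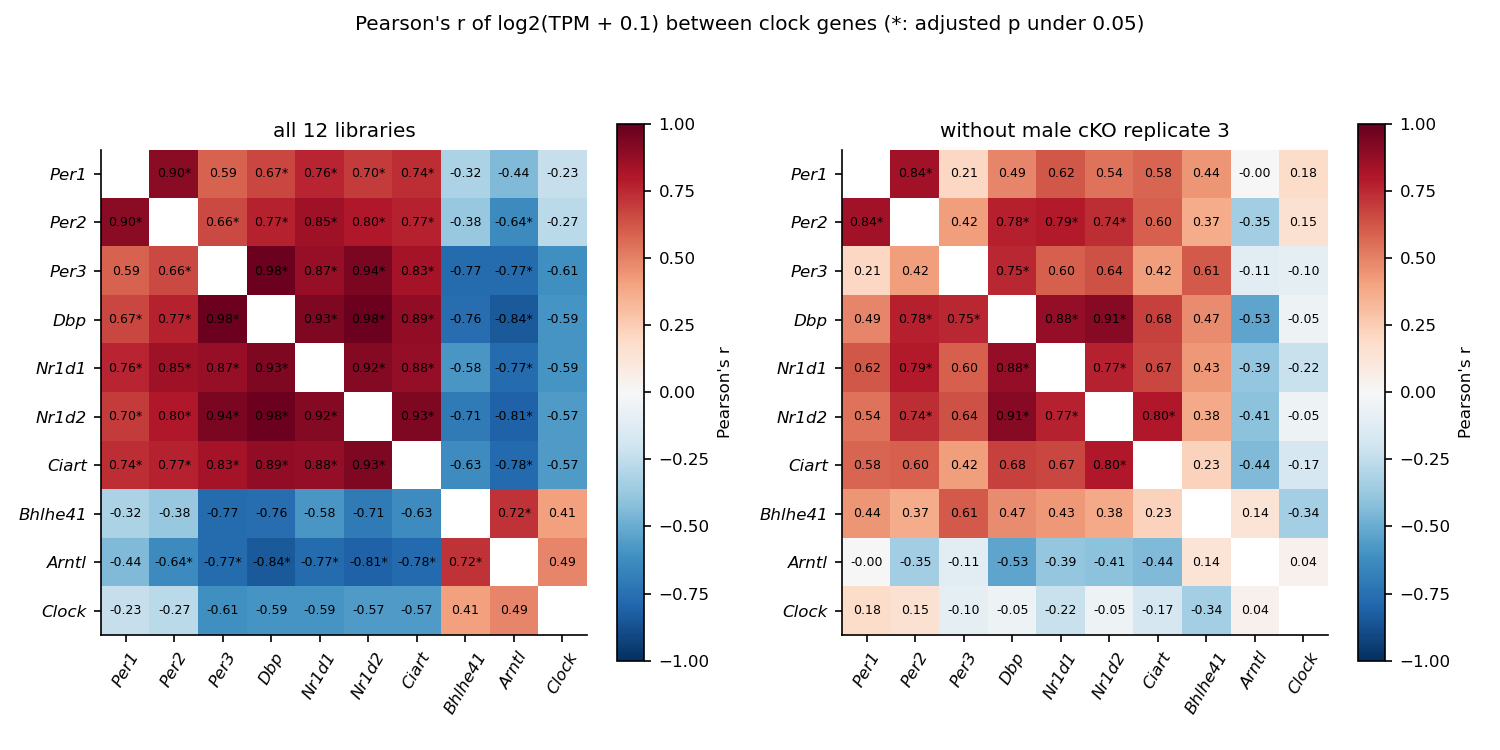
Pearson's r of log2(TPM + 0.1) for each pair of the 10 clock genes (color scale from -1 to 1, value in each cell, an asterisk for an adjusted permutation *p* under 0.05), over all 12 libraries on the left and without male cKO replicate 3 on the right. The blue rows of *Arntl* and *Bhlhe41* on the left fade or change sign on the right, and the number of pairs with an asterisk goes from 27 to 9.

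As deviations from the 4 group means, 12 pairs passed (exact permutation within groups), 11 of them positive, and 0 passed when male cKO replicate 3 was also left out. In the latter case 11 pairs had an unadjusted exact *p* under 0.05, all positive, and the smallest *p* this design can give is 0.00231. The group means were those of the labels, with female cKO replicate 3 and male cKO replicate 1 in their labelled groups. A difference between the sexes would therefore remain in the deviations of the *Dek* cKO groups, and its part was not tested. The within-group SD of the 10 genes lay at percentiles 51.6 to 84.7 of all tested genes, and at 29 to 67.8 without male cKO replicate 3. That background held every gene averaging 0.1 TPM or more, many of them less abundant than these. Without that library *Clock* was at percentile 66.2 and *Ciart* at 67.8. The within-group SD of *Dbp* was 0.717 on the log2 scale, at percentile 84.7 of all tested genes, and 0.270 without male cKO replicate 3, at percentile 62.6. That of *Per3* went from percentile 75.7 to 32.2 and that of *Bhlhe41* from 62 to 29.

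Genes outside the 10 also tracked *Dbp* and *Arntl* over the 12 libraries, given here as a description. Of the other clock genes described, 4 of 9 had r of at least 0.8 with *Dbp*, and so had 2.16% of all other tested genes. Without male cKO replicate 3 these shares were 2 of 9 and 1.67%. Among genes averaging 1 TPM or more, the most like *Dbp* were *Arhgef2* (r = 0.97), *Dynll2*, *Unc80*, *Rasal1* and *Aifm3* (0.96 each), and those least like it included *Cebpd* (-0.98), *Cnn3* (-0.97), *Psmc1* (-0.96) and *Nrn1* (-0.96). *Cebpd*, which encodes a bZIP factor, had 11.7 TPM in male cKO replicate 3 and 3.99 to 5.82 TPM elsewhere. Most like *Arntl* were *Dyrk3* and *Gsr* (r = 0.91 each), *Gfpt2* (0.90), *Ubl4a* (0.89) and *Wfdc3* (0.88), and least like it were *Rhpn1* (-0.90), *G0s2*, *Sox2* and *St3gal4* (-0.89 each) and *St6galnac6* (-0.88). Without male cKO replicate 3 the leading genes were others, with *Prex1* (0.96) among those most like *Dbp* and *Gm15481* (0.87) most like *Arntl*.

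Levels of the 10 genes were also set beside lists of genes that respond to neuronal activity, glucocorticoids or temperature and beside markers of choroid plexus and endothelium, 50 relations in all. *Per1* tracked the 12 immediate early genes, which neurons induce on activity (*Fos*, *Arc*, *Egr1* and others). The relation of *Per1* to their mean centred log2 level had r of 0.84 and rho of 0.80 over the 12 libraries (adjusted permutation *p* of 0.0264 and 0.124). It had r of 0.92 without the 2 farthest libraries, and 0.95 without male cKO replicate 3 (permutation *p* = 1e-05, the smallest possible, adjusted 0.0005). Within the 9 libraries with the CMV prefix r was 0.74 (adjusted permutation *p* = 0.095), so the relation did not pass there. The mean centred level of the list was -0.24 to 1.05 in libraries with low Y chromosome genes and -0.68 to 0.04 in those with high ones. *Per1* was at 34.2 to 50.6 TPM in the former and 23.2 to 36.5 TPM in the latter. Whether sex has a part in the relation was not tested. WT female replicate 2 had the most *Per1*, 50.6 TPM, and also the most *Arc* (120 TPM) and *Egr1* (96.8 TPM), and WT male replicate 3 had 28.4 TPM of *Per1*, 29.0 TPM of *Arc* and 29.8 TPM of *Egr1*. Male cKO replicate 3 had the lowest *Per1*, 23.2 TPM, beside a mixed list, whose mean centred level was -0.14 in it. *Arc* was at 60.9 TPM, *Egr1* at 40.4 TPM and *Fos* at 25.3 TPM, the second highest *Fos* value. *Ier2* (9.79 TPM) was higher there than in any other library, while *Egr4* (6.48 TPM), *Npas4* (2.42 TPM) and *Btg2* (8.26 TPM) were lower than in any other. *Per2* had r of 0.70 with the same list (adjusted permutation *p* = 0.0501), and 0.80 without male cKO replicate 3 (adjusted *p* = 0.113). Over the CMV libraries its r was 0.74, like that of *Per1* (adjusted permutation *p* = 0.095), and none of these passed. *Dbp* had r of 0.24 with the list (adjusted permutation *p* = 0.801), and 0.44 without male cKO replicate 3 (adjusted *p* = 0.373).

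The 5 temperature responsive genes were *Cirbp* and *Rbm3*, which encode cold-inducible RNA-binding proteins, and *Hspa1a*, *Hspa1b* and *Hsph1*, which encode heat-induced chaperones, so their mean joins genes that respond to temperature in opposite directions. With this mean, 6 of the 10 clock genes had r past the test over 12 libraries. *Dbp* had r of 0.73 and rho of 0.74 (adjusted permutation *p* of 0.0264 and 0.124) and *Arntl* had r of -0.76 and rho of -0.72 (adjusted *p* of 0.0264 and 0.124). Without male cKO replicate 3 these became 0.63 and -0.59 (permutation *p* of 0.0401 and 0.057, adjusted 0.301 for both), so neither passed the test over the 11 other libraries. Without the 2 farthest libraries r was 0.54 and -0.44, and over the CMV libraries it was 0.79 and -0.72 (adjusted permutation *p* of 0.0366 and 0.0921). Endothelial markers, which summed to 134.8 TPM in male cKO replicate 3 and to 151.6 to 169.6 TPM elsewhere, gave 4 relations past the test over 12 libraries and 0 without it. Choroid plexus markers varied from 46.52 to 4458 TPM in sum and had no relation past the test with any of the 10 genes. With glucocorticoid responsive genes there was likewise none past the test.

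**Figure D5:**
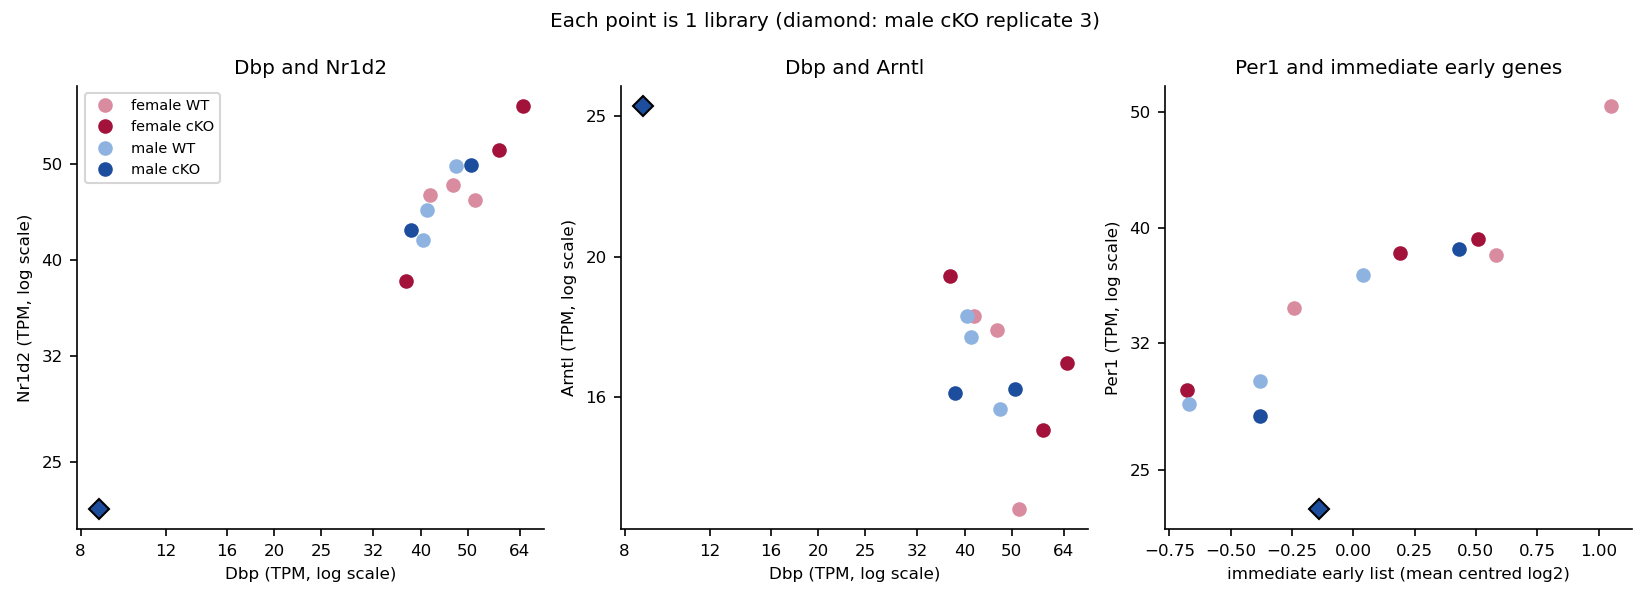
Libraries as points, colored by group, for *Dbp* against *Nr1d2* (left), *Dbp* against *Arntl* (middle), both in TPM on log axes, and the mean centred log2 level of 12 immediate early genes against *Per1* in TPM on a log axis (right), with male cKO replicate 3 as a diamond. *Dbp* and *Nr1d2* rise together with or without the diamond (r of 0.98 and 0.91), *Dbp* and *Arntl* oppose each other mainly through it (r of -0.84 and -0.53), and *Per1* rises with the immediate early genes in the other 11 libraries (r = 0.95).

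Since these genes moved together, the 250 bases upstream of their start sites were read for the motifs through which clock factors act, from RefSeq windows of GRCm38.p6, which were found for 9 of the 10 genes. The letters searched, on both strands, were CACGTG (E-box), CACGTT (E-prime box), TTATGTAA and TTACGTAA (D-box), TAGGTCA (ROR element) and TGACGTCA (CRE), in windows that also held 50 bases after the start site, and no match overlapped another. Of 32851 RefSeq windows of the same length, 7.15% held an E-box, 4.68% an E-prime box, 1.06% a D-box, 2.61% a ROR element and 1.79% a CRE. An E-box was in the windows of *Ciart* and *Bhlhe41* and in 1 of 2 windows of *Per1*, the other of which held no match. An E-prime box was in the window of *Nr1d1* and a D-box in that of *Per3*. A ROR element lay 31 bases after the start site in 1 of 2 windows of *Arntl*. The windows of *Dbp*, *Nr1d2* and *Clock* held none of these letters. A match is a run of letters and not a measured site. *Ciart*, *Nr1d1*, *Per3* and *Per1* are shown because they belong to the group of 7 correlated genes and a window of each held a match. That choice was made after the matches were seen, and for *Per1* only the window with the match is printed. Capitals mark the matches, and each run reads 5′ to 3′ on the strand of the gene and ends 1 base before the start site.
Ciart (chr3:95882229-95882478, minus strand): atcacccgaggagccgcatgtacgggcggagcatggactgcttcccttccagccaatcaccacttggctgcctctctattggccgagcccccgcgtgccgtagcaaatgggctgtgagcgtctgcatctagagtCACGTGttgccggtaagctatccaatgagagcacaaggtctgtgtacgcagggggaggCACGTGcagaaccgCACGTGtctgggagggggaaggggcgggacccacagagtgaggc
Nr1d1 (chr11:98775378-98775627, minus strand): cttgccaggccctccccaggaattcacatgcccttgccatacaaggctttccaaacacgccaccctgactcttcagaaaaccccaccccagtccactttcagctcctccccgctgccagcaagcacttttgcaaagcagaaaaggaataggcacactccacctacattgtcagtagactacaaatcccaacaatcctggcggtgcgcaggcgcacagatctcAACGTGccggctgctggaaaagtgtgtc
Per3 (chr4:151044666-151044915, minus strand): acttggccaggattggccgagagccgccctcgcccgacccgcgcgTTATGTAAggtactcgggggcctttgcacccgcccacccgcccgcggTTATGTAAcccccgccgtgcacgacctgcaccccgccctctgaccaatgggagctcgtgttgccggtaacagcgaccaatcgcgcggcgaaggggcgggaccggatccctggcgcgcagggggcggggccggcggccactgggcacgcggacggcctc
Per1 (chr11:69098699-69098948, plus strand): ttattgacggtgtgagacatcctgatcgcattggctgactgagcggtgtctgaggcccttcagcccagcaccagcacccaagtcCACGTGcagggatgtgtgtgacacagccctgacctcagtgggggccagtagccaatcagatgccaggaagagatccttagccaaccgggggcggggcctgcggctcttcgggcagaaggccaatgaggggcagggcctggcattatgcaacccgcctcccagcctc
Positions are counted back from the start site, so that -1 is the base before it. *Ciart* held 3 E-boxes, with first bases at -116, -58 and -44. *Per3* held 2 D-boxes, the motif that DBP binds, with first bases at -205 and -158. The r of *Per3* with *Dbp* was 0.98 over 12 libraries and 0.75 without male cKO replicate 3. It was 0.54 without the 2 libraries farthest from the median of *Per3*. Whether any of these motifs has a part in the levels was not tested. The E-box of *Per1* began at -166, and the E-prime box of *Nr1d1*, which appears on the printed strand as AACGTG, began at -28.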

How the data were processed

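The authors deposited 1 table of TPM with a column for each of the 12 libraries, all matched to samples by name. The study's methods describe Trim Galore, SortMeRNA, STAR on GRCm38 and Salmon, the submitters' processing notes name kallisto and mm10, and no source used here says which wrote the table. TPM keeps no read counts, so the count test of the study was not run and the counting error of a value is not known. The columns sum to 825750 to 845553 TPM, so part of the scaled transcripts is not listed.

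Gene identifiers were matched to GENCODE M21, which names 25245 of the 26409 genes. The 18197 genes that averaged 0.1 TPM or more were kept and log2(TPM + 0.1) was used, so fold changes of genes near that level are understated. Genotypes were compared with limma (version 3.58.1, R 4.3.3; trended prior variance, two-sided): 6 against 6 libraries for both sexes, and contrasts of 1 fit of 4 groups otherwise. Correlations used 100000 permutations, or all orders within groups for deviations. Groups came from the sample labels.

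The 10 genes and all lists were chosen with earlier results of these data known. The rule for names took the 10 genes, the highest and lowest of 25 other clock genes in a comparison, and the 5 genes most and least like *Dbp* and *Arntl*. Alternatives were 0.5 or 1 TPM added, other filters, median ratio rescaling, quantile normalization, no trend, a replicate block, sex as a covariate, the CMV libraries alone, the libraries of 1 sex alone, both libraries of conflicting sex left out, deviations from group means, Spearman's rho, and each library left out in turn. Deviations, list relations and likeness without male cKO replicate 3, and Spearman's rho for list relations, were added after seeing the data. So was the sorting of libraries by the Y chromosome genes, on which no test was run. The steps were checked on simulated data. Python 3.11.15, pandas 2.3.3, numpy 2.4.6, scipy 1.17.1 and matplotlib 3.10.9 were used. Sequences are from RefSeq. Results for some genes that the rule names are not reported here.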

Additional observations from a re-analysis of the deposited data

Results flagged for a closer look

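Each clock gene was examined in the 6 WT and the 6 *Dek* cKO libraries for a highest or lowest library far from the rest, by the gap to its nearest neighbour as a share of the range of the group (above the Dixon limit for 6 values, 0.625). Chance gives about 5% of independent groups such a gap, and 70 groups were examined, 9 of which had one. These groups share the same 12 libraries, so they are not independent. Within the *Dek* cKO group, male cKO replicate 3 alone had such a gap for 5.38% of all tested genes. *Per3* and *Bhlhe41* were the only ones of the 10 genes, both in *Dek* cKO through male cKO replicate 3, with shares of 0.634 (lowest) and 0.793 (highest). Among the 25 other clock genes, male cKO replicate 3 was also the lowest for *Tef* (0.697) and the highest for *Arntl2* (0.733), *Nfil3* (0.673), *Btrc* (0.635), *Nono* (0.740) and *Tspan4* (0.702). For *Rorb*, an ROR receptor gene, female cKO replicate 2 was the highest (0.633). In WT libraries no clock gene had such a gap. The astrocyte markers *Gfap* and *Aqp4* were also higher in male cKO replicate 3 and *Gja1* and *mt-Atp8* lower, while *Slc1a3*, *Aldh1l1* and *mt-Co1* lay within the range of the rest, and their part in these values was not tested.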

How the results depend on the processing

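In the 5 comparisons, 0 of the 10 clock genes passed under every alternative run (limma, the only tool run). The replicate block was run for the genotype comparison in both sexes, in females and in males. At an unadjusted *p* under 0.05 the count of the 10 ran from 0 to 1 in both sexes and in females, 0 to 5 in males, 0 to 4 for the interaction and 0 to 2 between WT males and WT females, with the most in the last 3 when both libraries of conflicting sex were left out. Same-numbered libraries did not deviate together (r from -0.038 to 0.045), so the numbers were not taken as pairs. With the replicate block 3 of all tested genes passed in both sexes together instead of 27. Of 429 repeats of single log2 fold changes, 11 changed sign. Without male cKO replicate 3, in both sexes, these were *Per3* (range over libraries left out -0.27 to 0.12), *Dbp* (-0.45 to 0.12), *Nr1d1* (-0.17 to 0.08), *Nr1d2* (-0.23 to 0.04) and *Arntl* (-0.0007 to 0.15), and in males *Dbp* (-1.22 to 0.04), *Per3* (-0.82 to 0.03) and *Nr1d2* (-0.55 to 0.03). With the CMV libraries alone, *Per1* was at 0.03, *Per2* at 0.06 and *Nr1d1* at 0.04. The 27 correlated pairs became 15 with Spearman's rho (20 at an unadjusted *p* under 0.05), 12 as deviations from group means and 0 as such deviations without male cKO replicate 3. Leaving out 1 library gave 9 to 30 pairs, 9 without male cKO replicate 3 and 23 or more otherwise. *Dbp* and *Bhlhe41* had rho of 0.01, and r of 0.47 without male cKO replicate 3. The 11 list relations became 0 with Spearman's rho (13 at an unadjusted *p* under 0.05) and 1 without male cKO replicate 3. What sets that library apart was not tested. Depth limits cannot be given, since TPM keeps no counts.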
